A study of Mus musculus with 3 samples.

Results

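The 10 genes described here encode interferon-induced GTPases of the mouse: the guanylate-binding proteins Gbp2, Gbp3, Gbp4, Gbp5, Gbp6 and Gbp7, and the immunity-related GTPases Igtp, Irgm1, Irgm2 and Iigp1. They were chosen by symbol from these gene families, with earlier results of these data known, and are 10 of the 33696 genes counted. Levels were followed in T cell-like, NK cell-like, macrophage-like, monocyte-like, neutrophil-like, B cell-like and KP1 tumor cell-like clusters and in an unnamed Cd3-rich cluster, from 3 droplet single-cell RNA libraries.

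KP1 is a mouse small cell lung cancer line with mutant Rb and p53, and it was grown under the skin of B6129SF1/J mice, an F1 hybrid of C57BL/6 and 129 backgrounds. The library of the mono-IL-10 group came from mice given monomeric IL-10, which the study describes as mutated for higher affinity to IL-10Rβ. That of the IL-10/2-Trikine group came from mice given IL-10/2-Trikine (Trikine). That of the combination group came from mice given Trikine with an antibody to PD-1, the inhibitory receptor of activated T cells. By the study's methods, mice received 500000 KP1 cells and then 3 µg of functional cytokine on alternate days from day 7 to day 19. Those of the combination also received 200 µg of the antibody per dose, on days 7, 11, 15 and 19. A figure legend of the study gives another first day. In the Trikine the monomeric IL-10 is linked to a mutant IL-2 that holds IL-2Rβ but cannot engage the common gamma chain, so this arm is no agonist by itself and brings IL-2Rβ to the receptors bound by IL-10. All 3 groups therefore carried the same tumor and received an IL-10 moiety, and no untreated library was analysed here. The treatment labels name the antibody for the combination alone and were followed, although the protocol text can be read as giving it to every group. Live CD45+ cells were sorted from dissociated tumors, so the KP1 cells in the libraries are those carried through a sort for leukocytes, and the labels' cell type, T cells, covers less than what was sequenced. How many mice were pooled for a library is not given in the sources used here. With 1 library per group there is no replicate check of any difference. Intervals of levels and ratios below cover the counting of transcripts alone. Those of medians cover the spread over the genes, which are not independent of each other, and those of shares the sampling of cells. None covers mice or libraries, and no test was made.

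Both families sit downstream of the interferons. Interferon-gamma, secreted by T and NK cells, binds a receptor on most cell types, and the signal switches on IRF1 and the GTPase genes. Guanylate-binding proteins assemble on vacuoles that hold pathogens and on free bacteria, and help to start inflammasomes. Among the immunity-related GTPases, Iigp1 (also called Irga6) is an effector that loads onto the vacuole, whereas Irgm1, Irgm2 and Igtp (also called Irgm3) are regulators that guard the cell's own membranes. In tumors the genes serve as a readout of interferon reaching a cell.

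The stretch just before each gene's start shows how such a readout is built, and the windows below carry the letters of the response elements. Promoter entries of RefSeq (build GRCm38.p6) were found for 7 of the 10 genes, in 8 entries. The 250 bases before each start were searched on both strands for the gamma-activated sequence TTCNNNGAA (GAS), an element of genes that respond to interferon-gamma, and for the interferon-stimulated response element (ISRE, taken as TTTC, any NN and TTTC, or GAAA, any NN and GAAA on the other strand), bound by IRF proteins. Capitals mark the matches and all windows are written 5′ to 3′ on the strand of the gene. Gbp2 is at chr3:142620584-142620633 (+), Gbp7 at chr3:142530210-142530312 (+), Irgm1 at chr11:48871421-48871470 (-), Igtp at chr11:58199491-58199551 (+) and Irgm2 at chr11:58214882-58214942 (+).
Gbp2: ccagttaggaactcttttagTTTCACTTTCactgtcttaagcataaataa
Gbp7: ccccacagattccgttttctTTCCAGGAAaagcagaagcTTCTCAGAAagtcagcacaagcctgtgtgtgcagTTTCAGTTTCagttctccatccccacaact
Irgm1: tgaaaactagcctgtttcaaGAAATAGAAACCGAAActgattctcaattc
Igtp: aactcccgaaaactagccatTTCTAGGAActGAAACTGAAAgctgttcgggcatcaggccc
Irgm2: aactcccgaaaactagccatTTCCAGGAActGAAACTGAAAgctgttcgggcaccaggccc

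All 7 genes held an ISRE match in at least 1 entry, against 2.98% of 32851 promoter entries. GAS matches, present in 7.02% of entries, were found in Gbp5, Gbp7, Igtp and Irgm2, and 0.332% of entries held both motifs. In Igtp the GAS match lay from -45 to -37 and the ISRE match from -34 to -25, and in Irgm2 the same pair lay from -75 to -67 and from -64 to -55. The Igtp and Irgm2 windows were alike at 59 of 61 bases. The paired matches in Gbp3 (from -45 to -36 and from -39 to -30) and in Irgm1 (from -30 to -21 and from -24 to -15) overlap each other. A second entry of Gbp3 held neither motif. These are matches of letters, and no binding was measured.

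The libraries held 158570946 UMIs (mono-IL-10), 197176873 UMIs (Trikine) and 175794959 UMIs (combination), a UMI being the tag that marks a single captured transcript. After removal of cells with fewer than 200 genes or over 20% mitochondrial transcripts 71909 cells remained, 22235, 22707 and 26967 of them in the respective libraries. Between 137 and 180 barcodes were shared by each pair of libraries. Cells were clustered without the interferon-response genes and 63959 fell into 8 classes, 7 of them named. At least 1 UMI of every marker listed for its name was found in each named class. This is a weak check, since all 8 T cell markers were also found in macrophage-like cells. Clusters were named by at least 3 markers 1.5-fold above other cells, and single ones passed with 4 T cell or 3 B cell markers. The summed marker level in the B cell-like class was 3790 CPM in mono-IL-10 against 21622 and 20346 CPM in the others. NK cell-like cells are those of a Cd3-poor class (Ncr1 in 69.2% of cells). A Cd3-rich class scored highest for the NK list but stayed unnamed, since Cd3e was found in 76.9% and Ncr1 in 29.1% of its cells, and its leading genes held the gamma-delta T cell receptor genes Trgv1, Trdc, Trgc4 and Trgc1 beside Klra6, Klra5, Klra1 and Klra7, receptors of NK cells and some T cells. Levels are CPM, counts per 1000000 UMIs of a class in a library, and they are compared within a gene and not between genes.

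Among the 8 classes, monocyte-like and neutrophil-like cells held the highest levels of Gbp2, Gbp5 and Irgm1 and KP1-like cells those of Gbp6 and Igtp. Iigp1 was high in monocyte-like and KP1-like cells. Gbp2 was at 340, 259 and 627 CPM in monocyte-like cells (mono-IL-10, Trikine and combination in this order here and below), and at 321, 360 and 472 CPM in neutrophil-like cells. In KP1-like cells Gbp2 was at 37.1, 39.0 and 50.4 CPM, the lowest of the 8 classes in each library. Monocyte-like and neutrophil-like cells had overlapping intervals in mono-IL-10 but not in Trikine.

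Gbp3, Gbp4 and Gbp5, which like Gbp2 take part in the coating of bacteria and in inflammasome responses, were also lowest in KP1-like cells in all 3 libraries. Gbp5, a promoter of NLRP3 inflammasome assembly, reached 184, 183 and 376 CPM in monocyte-like cells and 14.8, 11.1 and 16.6 CPM in KP1-like cells. In Cd3-poor NK cell-like cells it was above its level in T cell-like cells in each library, with 137, 84.5 and 191 CPM against 58.1, 34.5 and 57.0 CPM. Gbp7 was the most even, with a range of 2.14-, 1.87- and 2.00-fold over the classes and 5 to 7 neighboring classes in its order whose intervals overlapped.

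Among the 8 classes Gbp6 and Igtp had their highest level in the tumor cells. Gbp6 was at 66.1, 60.2 and 107 CPM in KP1-like cells, above the next class in every library, while the values in neutrophil-like cells were 13.7, 22.2 and 37.8 CPM. Reads of Gbp6 can be shared with Gbp10 and Gbp11, whose coding sequences translate to 97.7% and 90.7% identical residues, so its counts are uncertain. Igtp was at 149, 147 and 281 CPM in KP1-like cells, overlapping in Trikine with neutrophil-like cells at 127 CPM, and was lowest in Cd3-poor NK cell-like cells at 46.2, 36.3 and 70.8 CPM. Irgm1 followed the myeloid pattern, with 123, 130 and 293 CPM in monocyte-like cells, 152, 246 and 234 CPM in neutrophil-like cells, and its lowest level, 28.2, 17.5 and 28.6 CPM, in Cd3-poor NK cell-like cells. Irgm2 lay between 11.3 and 110 CPM in all classes and libraries, with neutrophil-like cells highest, though apart from the next class in Trikine alone. Their interval overlapped that of KP1-like cells in mono-IL-10 and that of monocyte-like cells in the combination.

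Iigp1 differed widely between classes. Monocyte-like cells held 295, 220 and 670 CPM and KP1-like cells 212, 261 and 450 CPM, whereas Cd3-poor NK cell-like cells held 5.10, 1.49 and 7.51 CPM from 19, 9 and 63 UMIs. The latter are read as background, so no fold over them is given. Macrophage-like cells, at 55.3, 59.3 and 94.6 CPM, lay well below the monocyte-like cells.

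**Figure D1:**
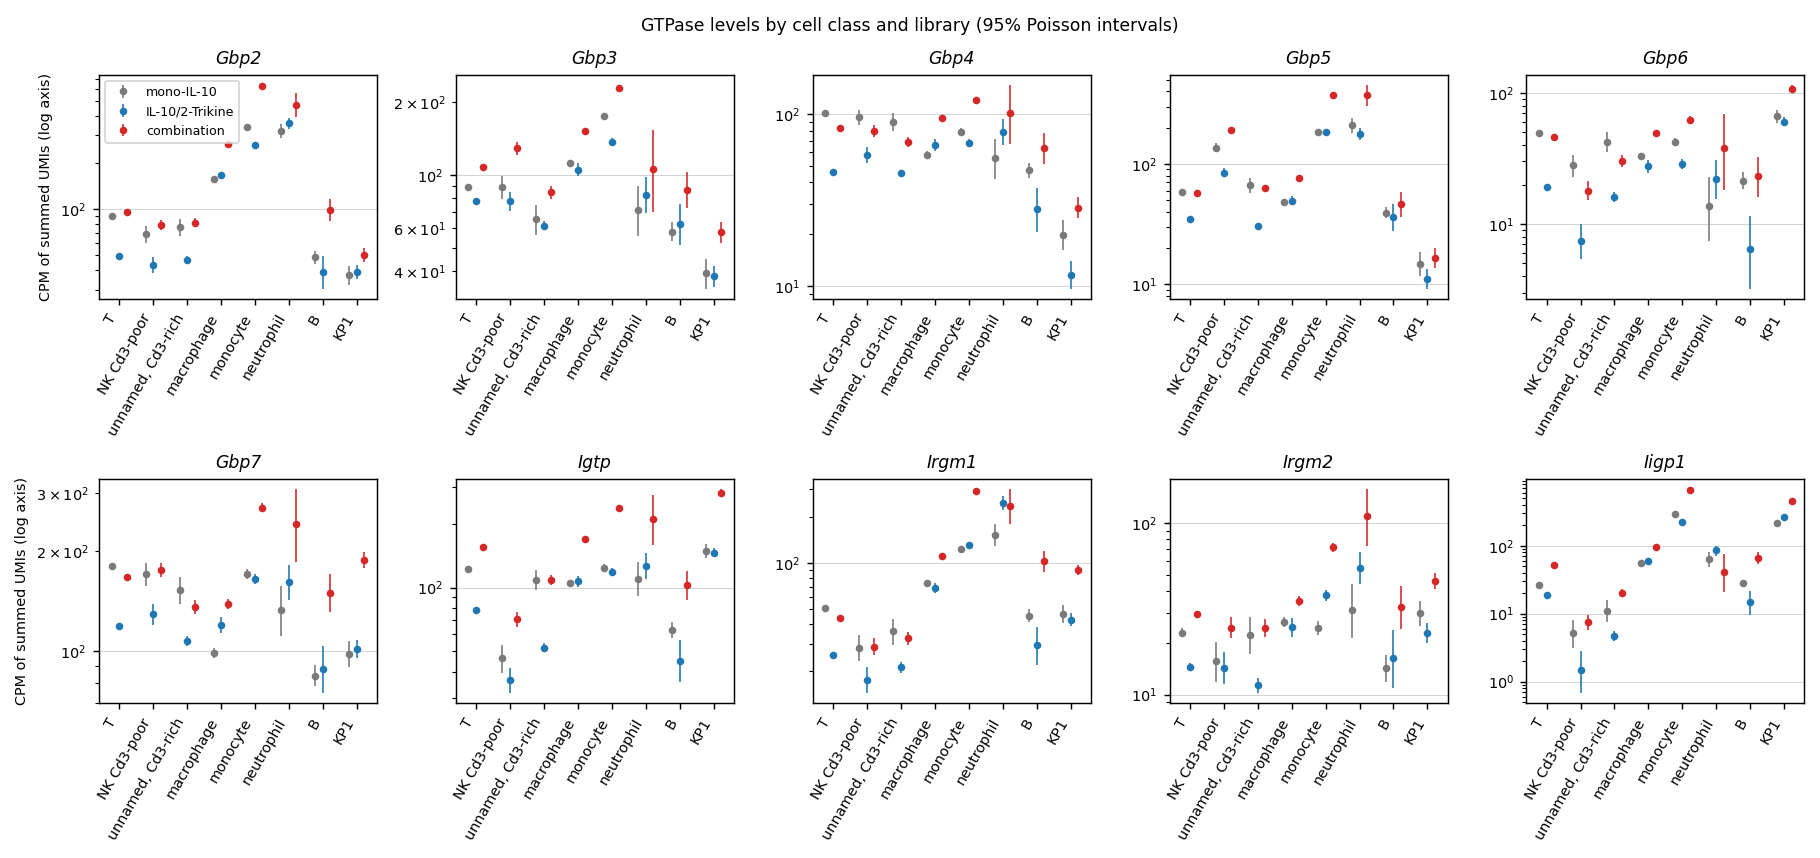
Level of each GTPase gene (CPM, log axis) in 8 cell classes, with 1 point per library and bars giving the exact 95% Poisson interval of the count. Among these classes Gbp2, Gbp5 and Irgm1 are highest in monocyte-like and neutrophil-like cells, Gbp6 and Igtp in KP1-like cells, and Iigp1 in monocyte-like and KP1-like cells.

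RNA that leaks from broken cells is captured in every droplet, so each level was set against that in droplets with at most 100 UMIs of the same library. The empty droplets themselves differed between libraries, with Gbp2 at 107, 81.0 and 169 CPM, Gbp6 at 48.0, 26.6 and 57.3 CPM and Iigp1 at 96.3, 55.4 and 132 CPM. Of the 10 genes 8 were lower in the empty droplets of Trikine than of mono-IL-10 (all but Gbp3 and Gbp7), and all 10 were higher in those of the combination than of Trikine. The share of all genes that moved so in empty droplets was not computed, so these counts are not read as particular to the 10. In T cell-like cells the macrophage genes Lyz2 and C1qa stood at 2.0 to 4.0% of their level in empty droplets, and the 10 GTPases at 27.5 to 136%. In Cd3-poor NK cell-like cells Iigp1 stood at 5.3, 2.7 and 5.7%, close to the 1.8 to 4.2% of Lyz2 and C1qa, and its values there are read as background. Its differences between libraries in that class are accordingly not read as differences in expression. The T cell genes Cd3e and Trbc2 stood higher in that class, at 21.1 to 26.6% and at 43.8 to 50.8%. Igtp at 41.1 to 43.6% and Irgm1 at 40.9 to 46.4% were not above Trbc2 beyond their intervals in any library. Gbp6 at 58.2, 27.9 and 31.4% likewise did not exceed Trbc2 beyond its interval. Gbp2 stood at 63.9% in mono-IL-10, above the 49.6% of Trbc2 with intervals apart, while at 53.6 and 46.4% in Trikine and the combination its interval overlapped that of Trbc2. By Trbc2 alone, free RNA and transcripts of the cells cannot be told apart for these genes, except for Gbp2 in mono-IL-10. Igtp, Irgm1, Gbp6 and Gbp2 all stood above the 21.1 to 26.6% of Cd3e and the 1.8 to 4.2% of Lyz2 and C1qa. Which of these genes measures free RNA in this class was not tested. In KP1-like cells the leukocyte genes Cd3e, Trbc2, Lyz2 and C1qa stood at 10.2 to 31.3%, Gbp4 at 16.9 to 27.5% and Gbp5 at 19.0 to 24.1%. The low Gbp4 and Gbp5 values of KP1-like cells were thus in the range of leukocyte transcripts, and Gbp2 at 29.8 to 48.1% reached from within this range to above it. Gbp6 at 138 to 226%, Igtp at 135 to 176% and Iigp1 at 221 to 471% were far above it.

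In B cell-like cells genes of other cells were well above the levels seen in T cell-like cells. Cd3e stood at 45.1 to 63.2% of its level in empty droplets, C1qa at 30.3 to 54.7%, and the GTPases at 24.1 to 152%. The class held 1601, 174 and 244 cells. Since the empty droplets differed between libraries in the same directions, its GTPase ratios are given with that limit, as are those of the low genes in KP1-like cells.

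**Figure D2:**
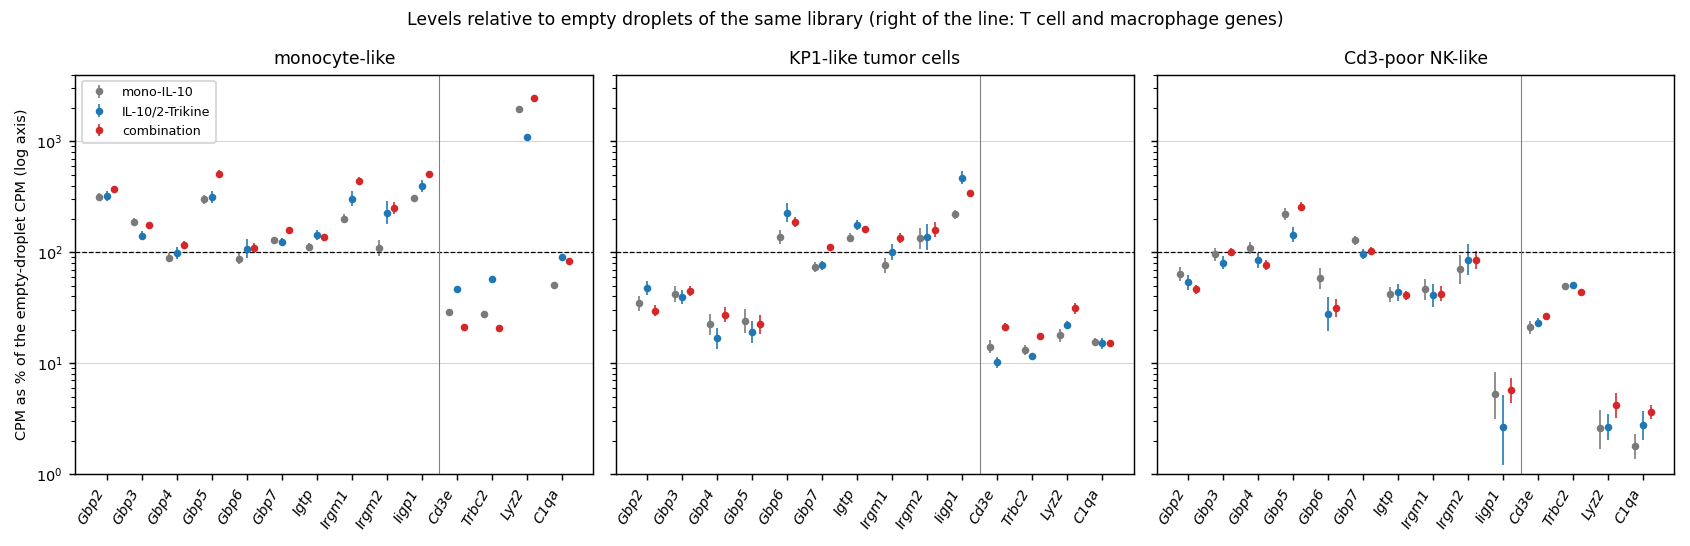
Level of the 10 GTPases and of the T cell genes Cd3e and Trbc2 and the macrophage genes Lyz2 and C1qa in monocyte-like, KP1-like and Cd3-poor NK cell-like cells, as a percentage of the CPM in empty droplets of the same library (log axis, 1 point per library, bars are 95% counting intervals, and the dashed line is 100%). In Cd3-poor NK cell-like cells Igtp and Irgm1 are not above Trbc2 beyond their intervals, Gbp2 is above it in mono-IL-10 alone, and Iigp1 lies close to Lyz2 and C1qa. In KP1-like cells Gbp4 and Gbp5 lie in the range of the genes of other cells, while Iigp1, Igtp and Gbp6 lie above 100%.

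Trikine compared with mono-IL-10 asks what bringing IL-2Rβ to the IL-10 receptor complex adds to monomeric IL-10. In T cell-like cells all 10 GTPases were lower with Trikine, 8 of them at least 1.5-fold, where 21.8% of 15488 genes were at least 1.5-fold lower. The median log2 ratio of the 10 genes was -0.71 (-1.15 to -0.47, a 97.9% order-statistic interval over genes), against -0.18 for all genes, a gap of -0.53. Gbp6 was at 49.8, 19.1 and 45.9 CPM in the 3 libraries, and its ratio of Trikine to mono-IL-10 was 0.38 (95% counting interval 0.36 to 0.41). Gbp4 was at 102, 46.0 and 83.5 CPM with a ratio of 0.45 (0.43 to 0.47). The smallest difference was that of Gbp3, at 88.7 and 77.8 CPM, with a ratio of 0.88 (0.84 to 0.91). Markers of other cells moved as well, the 8 NK markers summing to 3267, 7323 and 6111 CPM in T cell-like cells and the 8 macrophage markers to 75.6, 20.8 and 55.7 CPM, and their part in the GTPase values was not tested.

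Adding anti-PD-1 was the question of the combination compared with Trikine. All 10 genes were higher in the T cell-like cells of the combination, 8 of them at least 1.5-fold, where 8.87% of 15697 genes were. The median log2 ratio was 0.91 (0.49 to 1.26), against 0.06 for all genes. Iigp1 was at 19.1 and 51.6 CPM, giving 2.70 (2.55 to 2.86). Igtp was at 122, 78.3 and 156 CPM, with a ratio of the combination to Trikine of 2.00 (1.94 to 2.06). Gbp2 was at 89.5, 49.2 and 95.8 CPM, with a ratio of 1.95 (1.87 to 2.02). Both comparisons use the Trikine library, so a low value there enters each of them. Set against mono-IL-10 directly, the combination had a median of 0.03, with Gbp4 at 0.82 (0.79 to 0.85) and Iigp1 at 1.95 (1.83 to 2.08). Iigp1 was highest in a regulatory-like sub-cluster, which held 7.80, 13.4 and 16.4% of the UMIs of the class. Within that sub-cluster the ratio of Iigp1 was 1.32 (1.19 to 1.47). Iigp1 with the combination was also above its mono-IL-10 level in a CD8-like and a naive-like sub-cluster, whose levels are given below. The part of the sub-cluster shares in the ratio of the class was not tested.

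In the Cd3-poor NK cell-like class and in the Cd3-rich cluster the medians had the signs seen in T cell-like cells. In Cd3-poor NK cell-like cells the median was -0.67 for Trikine over mono-IL-10, with 6 of 10 genes at least 1.5-fold lower (9.75% of all genes), and 0.81 for the combination over Trikine, with 8 genes at least 1.5-fold higher (6.19%). Both counts include Iigp1, read as background in this class, and are taken over 10 genes that also hold Gbp2, Gbp6, Igtp and Irgm1. Relative to empty droplets, Gbp2 in 2 libraries and Gbp6, Igtp and Irgm1 in 3 were not above Trbc2 beyond their intervals. Macrophage markers summed to 77.1, 26.6 and 83.1 CPM in this class and T cell markers to 835, 1155 and 1199 CPM, and their part in the GTPase values was not tested. Gbp5 was at 137, 84.5 and 191 CPM, with ratios of 0.62 (0.55 to 0.70) and 2.26 (2.05 to 2.50). Gbp6 was at 27.9, 7.43 and 18.0 CPM, with ratios of 0.27 (0.18 to 0.38) and 2.42 (1.73 to 3.46). In the Cd3-rich cluster 8 genes were at least 1.5-fold lower with Trikine (19.1%), with a median of -0.99 against -0.12 for all genes, and 8 were at least 1.5-fold higher with the combination (10.3%), with a median of 0.86. When cells were chosen by a marker gate per cell in place of the cluster, the first median was -0.35. Here too both comparisons use the Trikine library. Set against mono-IL-10 directly, the combination had a median of 0.34 (-0.26 to 0.62) in Cd3-poor NK cell-like cells. In the Cd3-rich cluster that median was -0.05 (-0.39 to 0.37). The cluster held 459, 3534 and 1839 cells. Its summed NK markers were at 6668, 14845 and 9846 CPM and its summed T cell markers at 3914, 3862 and 3963 CPM, with Cd3e at 112 to 153% of its level in empty droplets, and the part of its makeup in the GTPase values was not tested.

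**Figure D3:**
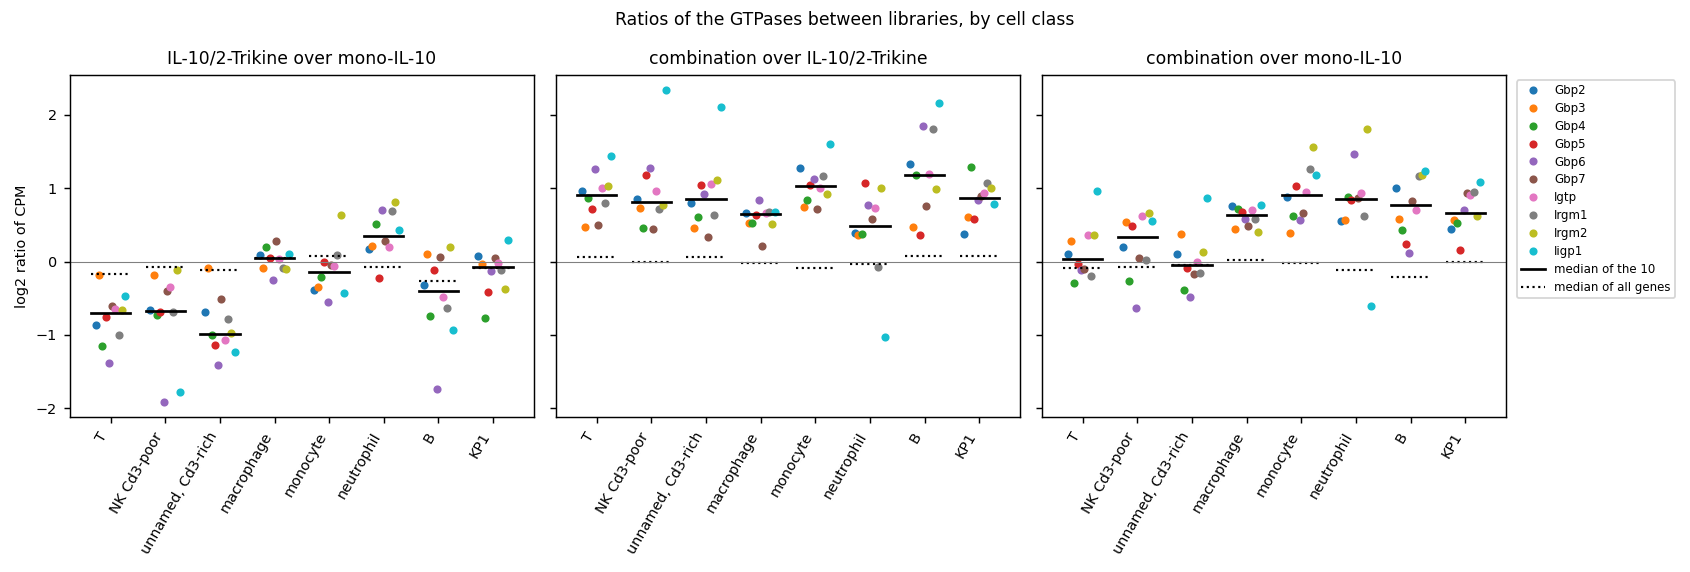
Log2 ratio of the CPM of each of the 10 GTPases (points) in 8 cell classes, for Trikine over mono-IL-10, the combination over Trikine and the combination over mono-IL-10, with the median of the 10 genes (solid line) and of all genes (dotted line). In the first panel all points of the T cell-like and Cd3-poor NK cell-like classes and of the unnamed Cd3-rich cluster lie below 0, and in the second panel all points lie above 0 except Irgm1 and Iigp1 in neutrophil-like cells.

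The T cell-like cells formed 12 sub-clusters, and the GTPases differed among them. A regulatory-like sub-cluster (Foxp3, Il2ra, Ikzf2 and Ctla4 among its markers) held 123, 90.4 and 163 CPM of Iigp1, where a CD8-like sub-cluster led by Ly6c2 and Ccl5 held 14.2, 3.92 and 25.6 CPM and a naive-like sub-cluster led by Sidt1 and Bach2 held 12.6, 5.80 and 28.6 CPM. Gbp2 had another order, with 161, 111 and 252 CPM in this CD8-like sub-cluster, 163, 113 and 202 CPM in this naive-like sub-cluster and 65.8, 70.8 and 99.5 CPM in the regulatory-like sub-cluster. Igtp in regulatory-like cells was at 187, 170 and 249 CPM, where KP1-like cells held 149, 147 and 281 CPM.

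In the CD8-like sub-cluster led by Ly6c2 the median log2 ratio was -0.68 for Trikine over mono-IL-10 and 1.05 for the combination over Trikine. A second CD8-like sub-cluster, led by Calcb, had -0.50 and 0.97. Activated CD4-like sub-clusters led by Csf1 and by Tnfsf8 had -0.67 and 0.68, and -0.80 and 0.89. The naive-like sub-cluster led by Sidt1 had -0.67 and 0.81. The first comparison was smaller in regulatory-like cells, at -0.32 with Gbp2 at a ratio of 1.08 (0.93 to 1.25), and its sign turned there to 0.27 in cells without a Mki67 UMI, against -0.34 in those with one. It was also smaller in a naive-like sub-cluster led by Igfbp4, at -0.07 with Gbp2 at 1.48 (1.12 to 1.93). The latter held 1379, 191 and 123 cells. A small unnamed sub-cluster led by Arg1 (38, 105 and 19 cells) gave 0.50 over 9 genes, 7 of them above 0. These differences between sub-clusters were not tested. The combination over Trikine was above 0 in the regulatory-like and the Igfbp4-led sub-clusters too, at 0.51 and 1.02. In the Arg1-led one it was 0.21 (-0.79 to 0.84), with 4 of 10 genes below 0.

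Dividing cells moved with the first comparison. Mki67, a marker of cycling cells, was found in 23.4, 44.5 and 30.6% of T cell-like cells, and 2 sub-clusters rich in such cells, which stayed unnamed, held 29.7, 55.3 and 39.0% of the UMIs of the class. Gbp2 was low in them, at 34.7, 20.7 and 35.4 CPM in the sub-cluster led by Xcl1 and at 56.7, 37.9 and 72.1 CPM in that led by histone genes. Gbp3 was at 83.5, 63.8 and 84.5 CPM in the former, below its level in the whole class by a smaller factor than Gbp2. Among T cell-like cells lacking a Mki67 UMI the median for Trikine over mono-IL-10 was -0.20, and that for the combination over Trikine 0.58. In those with a Mki67 UMI the medians were -0.78 and 0.80. Within sub-clusters, cells without a Mki67 UMI gave medians of the first comparison from -0.77 to -0.36 in the 2 CD8-like, the 2 activated CD4-like, the Sidt1-led naive-like and the Xcl1-led sub-clusters, and 0.27 in the regulatory-like one. In other sub-clusters they were -0.06 (naive-like, led by Igfbp4), -0.18 over 6 genes (unnamed, led by Tyrobp) and -0.99 over 8 genes (unnamed, led by Hspa1a). Weighting 11 sub-clusters equally, without the small one led by Arg1, gave -0.62 and 0.86. In cells of the Cd3-rich cluster without Mki67 the medians were -0.43 and 0.65, where 24.8, 54.8 and 31.0% of cells held a Mki67 UMI. Cd3-poor NK cell-like cells, of which 11.4, 14.6 and 9.71% held one, gave -0.60 and 0.82 without those cells. The pooled value of the first comparison in T cell-like cells thus depended on which cells were counted. Equal weighting of sub-clusters, at -0.62, stayed within the interval over genes of the pooled median (-1.15 to -0.47). The value was below 0 in each of these summaries of the whole class, while the regulatory-like sub-cluster changed sign. Whether a Mki67 UMI is seen in a cell also depends on the depth of the cell.

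**Figure D4:**
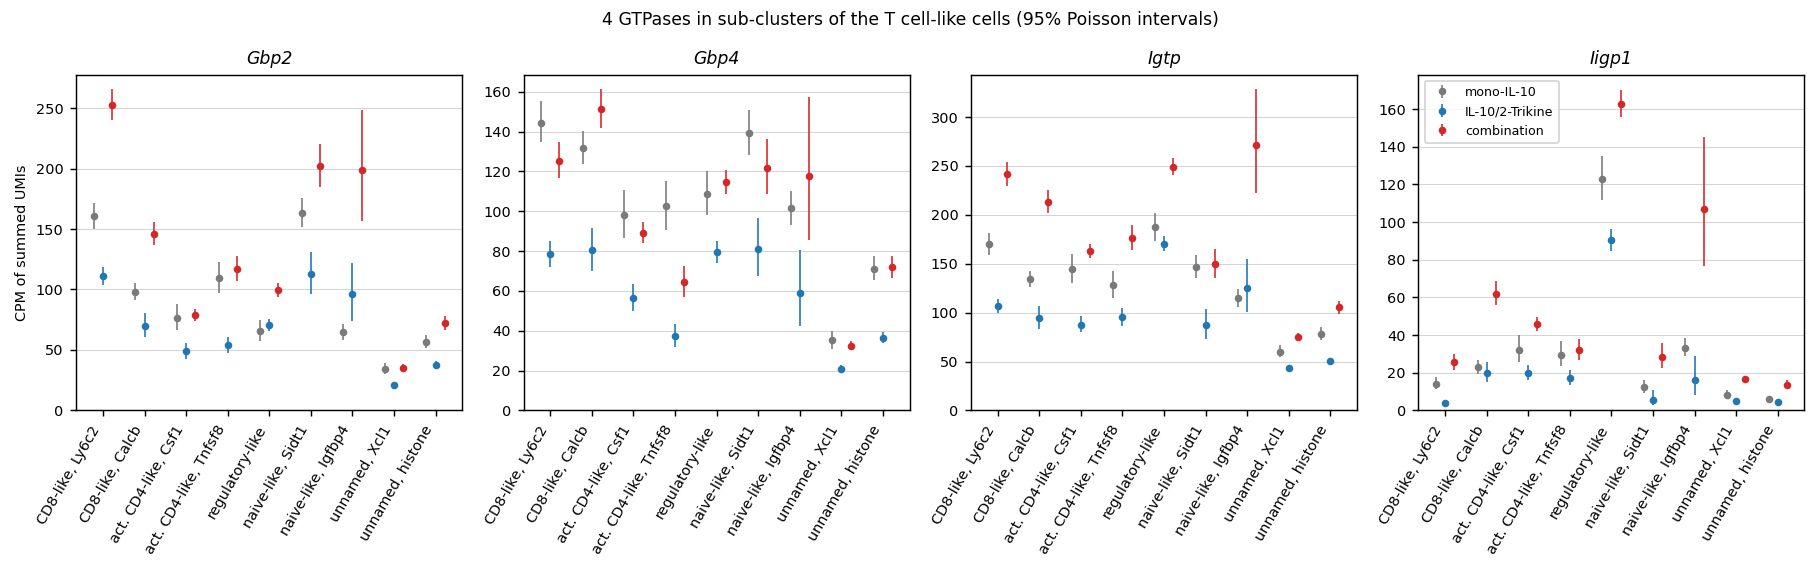
Level of Gbp2, Gbp4, Igtp and Iigp1 (CPM) in 9 sub-clusters of the T cell-like cells, with 1 point per library and exact 95% Poisson intervals. Iigp1 is highest in the regulatory-like sub-cluster (123, 90.4 and 163 CPM), and Gbp2 is lowest in the Xcl1-led sub-cluster of cycling cells (34.7, 20.7 and 35.4 CPM).

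Macrophage-like, monocyte-like and neutrophil-like cells gave medians of the first comparison near or above 0, a difference from the T cell-like and NK cell-like cells that was not tested. Conventional dendritic cell-like cells of the cDC2 type, also myeloid, differed from them, with a median of -0.48 (-0.70 to -0.02) and 4 of 10 genes at least 1.5-fold lower, where 12.1% of genes were. Of the cells in that cluster 38.1% held a Cd3e and 19.4% a C1qa UMI, and Ifng was at 80.0, 129 and 74.8 CPM there, and their part in its values was not tested. In macrophage-like cells no GTPase was 1.5-fold lower with Trikine (5.05% of genes were), and the median was 0.04 (-0.11 to 0.19). In monocyte-like cells no gene was 1.5-fold lower (8.58% were) and the median was -0.14, or 0.12 in cells with no Mki67 UMI. Irgm2 went the other way there, at 24.3 and 37.9 CPM with a ratio of 1.56 (1.38 to 1.75), while Gbp6 was at 42.0 and 28.7 CPM with a ratio of 0.68 (0.61 to 0.76). In neutrophil-like cells the median was 0.35 (0.17 to 0.70), with 9 of 10 genes above 0. Of the 10, 3 were at least 1.5-fold higher (15.3% of genes), and none was 1.5-fold lower where 25.4% of genes were. Irgm1 was at 152 and 246 CPM in these cells, a ratio of 1.61 (1.34 to 1.95).

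Against Trikine, the combination was higher for all 10 genes in monocyte-like cells and all 10 were at least 1.5-fold higher, where 6.66% of genes were. The median was 1.02 (0.74 to 1.28) beside -0.08 for all genes. Iigp1 was at 220 and 670 CPM, a ratio of 3.05 (2.95 to 3.16), the largest of the 10. Gbp2 was at 259 and 627 CPM, a ratio of 2.42 (2.34 to 2.50), and Irgm1 at 130 and 293 CPM, a ratio of 2.25 (2.15 to 2.36). The combination was also above mono-IL-10 in these cells, with a median of 0.91 and ratios from 1.31 for Gbp3 to 2.96 for Irgm2.

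In macrophage-like cells 6 of 10 genes were at least 1.5-fold higher with the combination than with Trikine (4.54%), with a median of 0.65. Irgm1 was at 73.6, 69.0 and 111 CPM, with a ratio of 1.60 (1.47 to 1.75), and Gbp7 was lowest among the ratios at 1.15 (1.08 to 1.23). In neutrophil-like cells 4 of 10 were at least 1.5-fold higher (19.1%), with a median of 0.49 whose interval reached down to -0.07. Only 126 neutrophil-like cells were in the combination, and Iigp1 there rested on 11 UMIs, with a ratio of 0.49 (0.24 to 0.90).

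Transcripts of other cells were found in the myeloid classes. In monocyte-like cells the 8 macrophage markers summed to 2118, 1173 and 2399 CPM, lowest with Trikine and highest with the combination, the order seen in 8 of the 10 GTPases. T cell markers were highest with Trikine. The summed T cell markers, 8 of 8 detected, were at 765, 1808 and 771 CPM in monocyte-like cells and at 183, 408 and 197 CPM in macrophage-like cells. NK markers in monocyte-like cells were at 403, 2527 and 880 CPM, and in macrophage-like cells at 88.7, 655 and 264 CPM. In neutrophil-like cells T cell markers were at 860, 1404 and 1069 CPM, NK markers at 377, 2680 and 3218 CPM, B cell markers at 1338, 137 and 60.4 CPM, plasma cell markers at 494, 6.17 and 0 CPM and macrophage markers at 1911, 872 and 1122 CPM. Of the 5 plasma cell markers all were at 0 in the combination, and Tnfrsf17 was at 0 in every library. Among the NK markers the defining Ncr1 was at 0 in neutrophil-like cells of mono-IL-10. Ifng itself, the ligand, was at 25.8, 80.3 and 32.2 CPM in monocyte-like and at 11.7, 67.7 and 4.38 CPM in macrophage-like cells. Their part in the GTPase values was not tested.

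Tumor cells gave a value of the first comparison near 0. In KP1-like cells the median of Trikine over mono-IL-10 was -0.08 (-0.41 to 0.07), against -0.09 for all genes, and 1 of 10 genes, Gbp4, was at least 1.5-fold lower (12.9%). Gbp4 and Gbp5 are in this count and median although their levels here lay in the range of leukocyte transcripts, so the Gbp4 value is not read as a difference of the tumor cells. Iigp1 was at 212 and 261 CPM, a ratio of 1.23 (1.14 to 1.32), and Igtp at 149 and 147 CPM, a ratio of 0.98 (0.90 to 1.08). Against Trikine, 8 of 10 genes were at least 1.5-fold higher with the combination (10.8%), Gbp4 among them, and the median was 0.86 (0.58 to 1.08). Igtp then reached 281 CPM, a ratio of 1.91 (1.79 to 2.05), Gbp6 stood at 60.2 and 107 CPM with a ratio of 1.78 (1.60 to 1.99), and Iigp1 at 261 and 450 CPM with a ratio of 1.72 (1.64 to 1.82). Irgm1 was at 46.6, 42.9 and 90.4 CPM, with a ratio of 2.11 (1.86 to 2.39). The 801, 1000 and 966 KP1-like cells had median depths of 1359, 9871 and 3186 UMIs. Their T cell markers summed to 371, 345 and 662 CPM and their macrophage markers to 535, 162 and 327 CPM. NK markers summed to 167, 594 and 735 CPM and Ifng was at 10.7, 9.52 and 35.3 CPM in them, and the part of these in the GTPase values was not tested.

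In B cell-like cells 4 of 10 genes were at least 1.5-fold lower with Trikine (32.3% of genes), with a median of -0.40 beside -0.26 for all genes. The sign of this median turned in 2 of 12 other settings, to 0.06 with a marker gate per cell and to 0.06 without the cells of highest doublet scores. With the combination 8 were at least 1.5-fold higher than with Trikine (16.8%), with a median of 1.19. Irgm1 was at 45.6, 29.2 and 103 CPM, with ratios of 0.64 (0.47 to 0.86) and 3.51 (2.54 to 4.93). The class joins 2 clusters in unequal parts, since that led by Ebf1, with a median of 673 UMIs, gave 643 of 1601 cells in mono-IL-10, 0 of 174 in Trikine and 60 of 244 in the combination. Macrophage markers summed to 2021, 414 and 1161 CPM and NK markers to 684, 3174 and 1237 CPM in the class. The part of these in the GTPase values was not tested.

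A higher level in a class can come from more cells with the transcript or from more transcripts per cell. After thinning each cell to 1000 UMIs, 51.8, 41.4 and 54.5% of T cell-like cells held at least 1 of the 10 genes, and 6.40, 3.73 and 8.27% held at least 3. Unthinned, 81.4, 80.6 and 82.0% of T cell-like cells held at least 1. For monocyte-like cells the thinned shares were 62.9, 65.9 and 85.4% for at least 1 gene and 18.9, 16.6 and 40.0% for at least 3, and for KP1-like cells 31.1, 33.6 and 51.2%, and 5.22, 5.29 and 10.3%. Unthinned, at least 1 gene was found in 92.1, 92.9 and 96.9% of monocyte-like and in 43.9, 60.9 and 66.9% of KP1-like cells. The thinned shares were highest in the combination in all 3 classes.

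Iigp1 was found in 20.5% (95% exact binomial interval 18.8 to 22.3), 18.9% (17.3 to 20.5) and 38.2% (36.0 to 40.3) of thinned monocyte-like cells, with 1.44, 1.41 and 1.86 UMIs in each cell that held it. Both the share and the amount per positive cell were thus highest in the combination. Unthinned the shares were 52.6, 47.1 and 70.5%. In thinned Cd3-poor NK cell-like cells, the class taken as lacking it, Iigp1 was found in 0.594, 0.144 and 0.621% of cells, and unthinned in 1.62, 0.522 and 1.82%, at median depths of 3840, 3295 and 3123 UMIs against 7884, 6471 and 7457 UMIs in monocyte-like cells. In T cell-like cells the thinned share of Iigp1 was 2.25, 2.28 and 4.65%, and in KP1-like cells 13.5, 15.7 and 22.9%. Thinning left out 856, 662 and 1618 T cell-like, 111, 96 and 65 monocyte-like and 341, 206 and 246 KP1-like cells below 1000 UMIs.

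**Figure D5:**
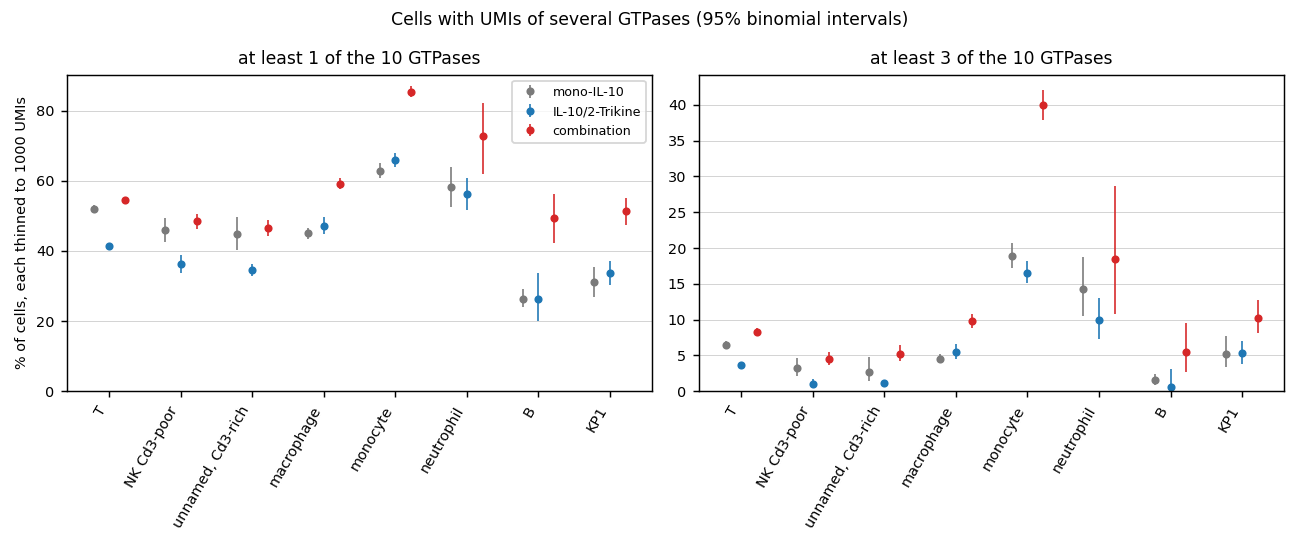
Share of cells (percent) holding at least 1 (left) and at least 3 (right) of the 10 GTPases after each cell was thinned to 1000 UMIs, by class and library, with exact 95% binomial intervals. The combination has the highest share of cells with at least 3 GTPases in T cell-like (8.27%), monocyte-like (40.0%) and KP1-like cells (10.3%).

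For Trikine over mono-IL-10 and the combination over Trikine, other genes of both families had medians of the same sign in T cell-like cells. Of 18 further Gbp and IRG genes in the files, 17 had enough UMIs, and all 17 were lower with Trikine than with mono-IL-10, 13 of them at least 1.5-fold (21.8% of all genes), with a median of -1.08. Ifi47, an effector of the IRG family, was at 197, 120 and 190 CPM. Gbp9 was at 41.4, 13.6 and 29.3 CPM, and Gbp2b at 41.8, 26.1 and 51.1 CPM. With the combination 16 of 17 were higher than with Trikine, 9 at least 1.5-fold (8.87% of all genes), with a median of 0.67. In monocyte-like cells the medians were -0.10 and 0.71, with Gbp2b at 175, 163 and 389 CPM and Ifi47 at 300, 259 and 484 CPM. For the combination over mono-IL-10 in T cell-like cells the family median was -0.39 over 18 genes, against 0.03 for the 10 GTPases. Of the 18, 14 were below 0 and 5 at least 1.5-fold lower (14.4% of all genes).

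Among 16 interferon signaling genes the medians were closer to 0. Of these, 8 were at least 1.5-fold lower with Trikine in T cell-like cells (21.8% of all genes), with a median of -0.59. With the combination 2 of 16 were at least 1.5-fold higher, near the 8.87% of all genes, with a median of 0.39. Irf1, a factor that binds the ISRE, was at 321, 223 and 295 CPM, and Ifngr2, a chain of the interferon-gamma receptor, at 7.90, 2.60 and 2.31 CPM. Socs1, the inhibitor of the pathway, was at 82.1, 99.6 and 129 CPM in T cell-like cells and at 99.3, 251 and 523 CPM in monocyte-like cells. The ligand Ifng was at 219, 179 and 265 CPM in T cell-like cells, and at 244, 80.9 and 76.4 CPM in Cd3-poor NK cell-like cells, where its ratio of the combination to Trikine was 0.95 (0.84 to 1.07).

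Of 20 listed targets of interferon-gamma, 18 could be compared in T cell-like cells for Trikine over mono-IL-10, with a median of -0.39. Of the 18, 6 were at least 1.5-fold lower (21.8% of all genes) and 1 at least 1.5-fold higher (9.43%). The lowest log2 ratios were those of Cxcl9 (-1.20), a chemokine that draws T cells, and Ciita (-1.12), the activator of MHC class II genes, and the highest those of Cxcl10 (0.70) and Socs1 (0.28). For the combination over Trikine the median was 0.40 over 19 genes, from Ubd (-0.05) and Psmb8 (0.01), an immunoproteasome subunit, to Il18bp (0.92), which encodes a decoy for IL-18, and Cxcl9 (1.12). Of the 19, 5 were at least 1.5-fold higher (8.87% of all genes). In monocyte-like cells the medians were -0.22 and 0.51. All 20 genes were higher there with the combination than with Trikine, 8 of them at least 1.5-fold (6.66% of all genes). The median of all genes for that comparison was -0.08. Cxcl9 was at 516, 279 and 700 CPM there.

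Targets of interferon-alpha, of which 29 could be compared, had medians of -1.04 and 0.63 in T cell-like cells. All 29 were lower with Trikine, 25 of them at least 1.5-fold (21.8% of all genes), from Mx2 (-2.91) and Ifit3 (-2.70), both antiviral effectors, to Cmpk2 (-0.02) and Bst2 (-0.0047). With the combination 18 were at least 1.5-fold higher (8.87%), with Oasl1 (1.64) and Ifit1 (1.48) highest and Cmpk2 (-0.24) and Oas3 (-0.06) lowest. The medians of this list were -0.53 and 0.67 in monocyte-like cells and -0.69 and 0.37 in KP1-like cells. For the combination over mono-IL-10 in T cell-like cells the interferon-gamma list had a median of 0.05 and this list -0.54. Of the 29 genes here 27 were below 0 and 13 at least 1.5-fold lower (14.4% of all genes). No list was tested against another, and the Trikine library enters the ratio to mono-IL-10 and that of the combination to Trikine in every list.

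Genes whose level followed that of the 10 GTPases most closely were ranked over 69 points, a point being a cluster with at least 50 cells in a library (24 clusters), by Pearson's r of log2(CPM + 10) with the mean of the 10 standardized genes, among 6856 genes with at least 20 CPM on average. Zbp1, a sensor of nucleic acids that starts cell death, came first with r = 0.82, followed among others by Gbp2b at 0.76, Ifi47 at 0.75, Gbp9 at 0.72, Samhd1 at 0.72, Isg15 at 0.69, Parp14 at 0.67, Xaf1 at 0.67 and Irf1 at 0.65. Among the 10 themselves, the 45 pairs had r from -0.12 (Gbp4 and Iigp1) to 0.82 (Gbp2 and Irgm1), with a median of 0.49. Points share a library and its depth and, within a cluster, a cell type, so these r describe the data and carry no p.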

How the data were processed

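Single-cell RNA was measured in 3 droplet libraries, 1 per group. The authors deposited raw gene-by-barcode matrices of UMI counts without normalization. The matrix headers name Cell Ranger 8.0.0, the submitters' processing notes list mm10, and the study's methods name another version and build, so no gene coordinates were taken from the files. Samples were grouped by their labels, and the combination was taken as the library whose treatment label names anti-PD-1.

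Barcodes were kept when they held 200 or more genes and no more than 20% mitochondrial UMIs, which left 71909 cells. The study's methods give the same filter and a smaller number of cells, so the cell sets differ, for a reason not given in the sources used here. Cells were clustered with scanpy 1.11.5 (2000 variable genes without the GTPases and interferon lists, 30 components, Leiden resolution 1) and named from marker lists as "-like". Clusters with Cd3e and C1qa each in at least 50% of cells were kept apart as mixed. Cells with macrophage and T cell transcripts in clusters below this limit stayed in their class. Doublets were kept, since automatic Scrublet thresholds marked 2782, 0 and 0 cells. UMIs were summed per class and library and expressed as CPM. Levels have exact 95% Poisson intervals and ratios exact conditional binomial intervals, for genes with at least 20 UMIs in the pair. With 1 library per group no test and no p-value was computed. Intervals for shares are exact binomial. The members and gene lists were chosen with earlier results of these data known. The 10 GTPases are named, and other genes are named from among further family members with at least 20 UMIs per library of T cell-like cells, the signaling genes, both target lists and the 10 genes most alike. A withheld item is not reported here. Scripts were tested on simulated data. Alternatives used edgeR's TMM factors and DESeq2's median-of-ratios method, other filters, clusterings and weightings.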

Additional observations from a re-analysis of the deposited data

Results flagged for a closer look

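The ratio of Trikine to mono-IL-10 had opposite signs in T cell-like and Cd3-poor NK cell-like cells, with an unnamed Cd3-rich cluster, and in neutrophil-like cells. The median log2 ratio of the 10 GTPases was -0.71 in T cell-like, -0.67 in Cd3-poor NK cell-like and -0.99 in the Cd3-rich cluster, and 0.35 in neutrophil-like cells. Cells of the Cd3-rich cluster held Cd3e in 76.9% and Ncr1 in 29.1% of cases, and a marker gate per cell in its place gave -0.35. The same gate gave 0.17 over 9 genes in neutrophil-like cells. With 1 library per group this difference between classes was not tested. Cells with a Mki67 UMI made up 23.4, 44.5 and 30.6% of T cell-like cells and 14.5, 10.2 and 7.94% of neutrophil-like cells (mono-IL-10, Trikine, combination), and leaving them out gave medians of -0.20 (T cell-like), -0.60 (Cd3-poor NK cell-like), -0.43 (Cd3-rich cluster) and 0.50 (neutrophil-like).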

How the results depend on the processing

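No paired analysis was possible because each group has 1 library. The 24 medians (8 classes, 3 comparisons) were recomputed under 14 settings, which gave 300 values. Of these, 286 lay within the interval over genes of the median as reported and 14 lay outside it, and the cause was not tested. For Trikine over mono-IL-10, leaving out cells with a Mki67 UMI gave -0.20 in T cell-like cells, -0.43 in the unnamed Cd3-rich cluster, 0.12 in monocyte-like and 0.12 in KP1-like cells, the mean of CPM per cell gave -0.45 in T cell-like cells, and a marker gate per cell gave -0.35 in place of the Cd3-rich cluster. For the combination over Trikine, median-of-ratios scaling gave 0.69 and counting mixed clusters in their class 0.74 in macrophage-like cells. For the combination over mono-IL-10, Leiden resolution 2 gave -0.40 in the Cd3-rich cluster. Removing the 10% of cells with the highest doublet scores gave 0.47 in neutrophil-like and 1.41 in B cell-like cells, the mean of CPM per cell 0.41 and 1.26, and the marker gate 1.46 in B cell-like cells. The sign held in every setting for all 8 medians of the combination over Trikine. For Trikine over mono-IL-10 it held in 10 of 12 settings in B cell-like (0.06 at the highest), 9 of 12 in KP1-like, 11 of 13 in monocyte-like and 9 of 13 in macrophage-like cells, and in all settings in the other classes. For the combination over mono-IL-10 it held in 7 of 12 in the Cd3-rich cluster, 13 of 14 in T cell-like cells and all settings elsewhere. Over these settings Trikine over mono-IL-10 ranged from -0.77 to -0.20 in T cell-like cells and the combination over Trikine from 0.58 to 0.93. Single values moved more often than medians. Of 240 levels, 120 left their counting interval with the mean of CPM per cell, 82 with 10% of UMIs taken away as free RNA and 30 with TMM scaling. The fixed 10% is below the levels given above, relative to empty droplets, for Cd3e in Cd3-poor NK cell-like, B cell-like and KP1-like cells. It therefore sets no bound on free RNA in these classes. Of 240 shares of cells, 204 left theirs at 500 UMIs per cell and 231 without thinning. The doublet cut, the equal weighting of T cell-like sub-clusters and the split of sub-clusters by Mki67 were chosen after seeing the data. Depth limits Iigp1 in NK cell-like cells (9 UMIs in Trikine) and all genes in the 126 neutrophil-like cells of the combination.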

Other observations

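Dendritic cells, which present antigen, were not among the 8 classes. In conventional dendritic cell-like cells of the cDC2 type (421, 704 and 424 cells in mono-IL-10, Trikine and combination) the median log2 ratio of the 10 GTPases was -0.48 for Trikine over mono-IL-10 and 0.89 for the combination over Trikine. Cd3e was found in 38.1% and C1qa in 19.4% of the cells of this cluster, and their part in its values was not tested. Gbp2 was at 144, 88.8 and 233 CPM there, and Iigp1 at 131, 83.3 and 223 CPM. In plasmacytoid dendritic cell-like cells (143, 94 and 88 cells), a source of type I interferon, the medians were 0.08 and 0.47. Iigp1 was at 76.6, 82.3 and 206 CPM in these cells and Gbp2 at 23.8, 41.1 and 51.5 CPM. No replicate stands behind these values and they were not tested.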
